A study of Mus musculus with 32 samples.

Results

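Described here are 10 genes around the mixed-lineage leukemia protein: Kmt2a (MLL itself), the fusion partner genes Mllt3 (AF9), Mllt1 (ENL), Mllt10 (AF10), Aff1 (AF4) and Aff4, and the cofactor genes Dot1l, Men1, Psip1 and Cdk9. They were chosen by name, out of 21938 protein-coding genes of the GENCODE M21 annotation on the mouse GRCm38 (mm10) build. For each gene, every peak that overlapped the gene body or a promoter window was taken, a promoter window being 1 kb upstream to 500 bp downstream of any annotated transcription start site (TSS). Gene body and promoter windows together are called the locus.

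KMT2A writes methyl groups on lysine 4 of histone H3 and is held on chromatin by menin (Men1) and LEDGF (Psip1). AF9 and ENL carry a YEATS domain that binds acylated lysines of histone H3, among them acetylated lysine 9 (H3K9ac), and recruit both DOT1L, the methyltransferase of H3 lysine 79, which works with AF10, and the super elongation complex, in which AFF1 and AFF4 are scaffolds and CDK9 is the kinase that releases paused RNA polymerase II. In leukemia the amino-terminal part of MLL is fused to one of these partners, so that elongation and H3K79 methylation are directed to MLL-bound genes. Kat2a (GCN5) is an acetyltransferase that writes H3K9ac.

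The study asked how loss of Kat2a changes the chromatin of leukemia cells. ChIP-seq peak lists were available for 4 histone marks, each in 2 genotypes and 2 replicates, 16 lists in all: H3K4me3, which marks active promoters, H3K9ac and H3K27ac, acetylation marks of active promoters and enhancers, and H3K4me1, a mark of enhancers and promoter flanks. Donor mice were Kat2a Flox/Flox and were all given pIpC, which switches on Mx1-Cre. Kat2a WT mice had no Cre (Mx1-Cre -/-) and Kat2a KO mice had 1 copy (Mx1-Cre +/-). Bone marrow was taken 4-6 weeks later, depleted of lineage-positive cells, infected with a retrovirus carrying MLL-AF9 and given to lethally irradiated recipients. Total bone marrow at the terminal stage was then pooled, from 5 WT and 4 KO animals, so the replicates of a genotype share animals, the marrow can hold residual recipient cells, and p-values measure the spread between libraries and not between mice. Since the fusion was supplied by a retrovirus, the Kmt2a and Mllt3 genes described here are the endogenous copies.

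Chromatin came from 5000000 cells for H3K9ac and H3K4me3 and from 500000 cells for H3K27ac and H3K4me1. The lists held 15685 to 23297 peaks for H3K4me3 and 27657 to 33605 for H3K9ac. Replicate 1 of H3K27ac and of H3K4me1 stood apart in both genotypes, with median peak widths of 48 or 49 bp and at most 0.0485% of peaks at a q-value of 0.05 or lower, so for these 2 marks replicate 2 was used and replicate 1 is given as values. Replicate 2 itself was unequal, with 29757 H3K27ac peaks in WT and 46047 in KO, and 45770 H3K4me1 peaks in WT and 78042 in KO. Under H3K9ac peaks lay 26.8 and 28.9 Mb of the genome in WT and 20.7 and 24.7 Mb in KO. Read numbers are not part of a peak list, and the depth behind each peak is therefore unknown. In bulk marrow, fewer cells of a type and less of a mark per cell cannot be told apart. An H3K4me3 promoter peak was present at 10 to 13 of 13 myeloid and leukemia marker genes per library, at 0 of 5 T-cell genes, 1 or 2 of 5 B-cell genes, 0 to 2 of 4 erythroid genes and 2 or 3 of 5 stromal and endothelial genes. Among the defining markers, Cd79a, Gata1 and Klf1 had none in any library, and Mpo had none in either KO library. Kat2a itself had an H3K9ac promoter peak in all 4 libraries, of 8.002- and 4.58-fold enrichment over local background in WT and 7.48- and 11.8-fold in KO, but its promoter lies outside the deleted part and checks nothing.

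Promoter sequences are shown first for the genes on which the results turn, to set promoters with dense CpG beside the outermost Mllt10 and the Men1 promoter, which hold fewer. They are RefSeq promoters of build GRCm38.p6, 250 bases before to 50 bases after a RefSeq TSS, in the direction of transcription. Entries were found for 9 of the 10 genes (15 entries). Psip1 had no entry. Capitals mark matches, on either strand, to CACGTG (the E-box bound by Myc), CCGGAAG (an ETS site such as that of Gabpa), CCAAT, the Nrf1 site or TATAAA, and no match overlaps a match to another of these motifs.
Kmt2a, chr9:44881240-44881539, minus strand: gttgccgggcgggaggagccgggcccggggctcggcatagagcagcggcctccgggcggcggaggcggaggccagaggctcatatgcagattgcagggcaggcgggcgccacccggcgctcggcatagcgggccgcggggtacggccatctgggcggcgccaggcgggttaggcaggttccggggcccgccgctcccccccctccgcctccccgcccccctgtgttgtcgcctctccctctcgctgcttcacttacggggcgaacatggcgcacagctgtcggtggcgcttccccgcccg
Mllt3, chr4:88033358-88033657, minus strand: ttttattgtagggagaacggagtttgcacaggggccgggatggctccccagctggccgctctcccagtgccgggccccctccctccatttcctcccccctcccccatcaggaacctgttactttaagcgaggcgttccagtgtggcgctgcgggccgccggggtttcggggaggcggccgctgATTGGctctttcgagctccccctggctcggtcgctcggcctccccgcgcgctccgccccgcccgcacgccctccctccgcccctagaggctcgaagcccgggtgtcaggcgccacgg
Mllt10 at the outermost TSS, chr2:18054987-18055286, plus strand: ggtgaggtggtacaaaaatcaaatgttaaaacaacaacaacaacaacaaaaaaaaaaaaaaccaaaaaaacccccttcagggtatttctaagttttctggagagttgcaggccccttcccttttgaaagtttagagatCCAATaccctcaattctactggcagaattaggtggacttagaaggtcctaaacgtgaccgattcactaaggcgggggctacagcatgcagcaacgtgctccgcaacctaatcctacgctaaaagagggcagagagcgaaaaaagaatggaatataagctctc
Mllt10 at the TSS cluster inside the gene, chr2:18064335-18064634, plus strand: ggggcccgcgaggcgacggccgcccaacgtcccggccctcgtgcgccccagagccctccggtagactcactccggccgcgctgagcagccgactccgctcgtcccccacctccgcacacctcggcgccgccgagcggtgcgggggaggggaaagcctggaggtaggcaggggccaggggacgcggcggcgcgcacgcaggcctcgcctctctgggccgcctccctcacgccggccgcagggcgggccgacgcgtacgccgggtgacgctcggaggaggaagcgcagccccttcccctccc
Aff1 at the TSS cluster inside the gene, chr5:103753912-103754211, plus strand: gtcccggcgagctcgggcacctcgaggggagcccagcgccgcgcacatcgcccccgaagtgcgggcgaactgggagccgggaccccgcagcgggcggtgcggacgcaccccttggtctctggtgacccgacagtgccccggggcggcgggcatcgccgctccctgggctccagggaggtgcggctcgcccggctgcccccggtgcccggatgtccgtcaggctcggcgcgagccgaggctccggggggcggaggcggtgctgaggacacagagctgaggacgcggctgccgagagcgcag
Aff4, chr11:53350517-53350816, plus strand: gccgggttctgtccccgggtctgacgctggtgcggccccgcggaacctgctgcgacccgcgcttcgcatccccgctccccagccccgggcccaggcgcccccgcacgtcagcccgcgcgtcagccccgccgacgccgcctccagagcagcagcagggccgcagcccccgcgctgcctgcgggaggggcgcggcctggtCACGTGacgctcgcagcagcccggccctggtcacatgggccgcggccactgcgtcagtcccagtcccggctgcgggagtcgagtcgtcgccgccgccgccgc
Men1, chr19:6334729-6335028, plus strand: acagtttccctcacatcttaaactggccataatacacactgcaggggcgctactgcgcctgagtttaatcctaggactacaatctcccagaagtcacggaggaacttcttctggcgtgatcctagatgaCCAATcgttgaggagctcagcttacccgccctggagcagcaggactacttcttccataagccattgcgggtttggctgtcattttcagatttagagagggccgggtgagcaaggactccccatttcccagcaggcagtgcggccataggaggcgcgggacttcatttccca

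These windows held 36 CpG for Kmt2a, 29 for Mllt3, 43 for the Mllt10 cluster inside the gene, 40 for Aff1 and 44 for Aff4, against a median of 7 over all 32851 promoters of the table. The outermost Mllt10 window held 7 and the Men1 window 11. CACGTG was found in 1 of the 15 entries (Aff4), against 7.15% of all promoters. CCGGAAG was found in 3 (Mllt1, Dot1l and Cdk9), against 8.86%. CCAAT was found in 8, of which 3 are overlapping Men1 entries, against 37.4%. The Nrf1 site and TATAAA were in no entry, against 0.971% and 13.6% of all promoters.

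The H3K4me3 lists split the annotated start sites of the 10 genes cleanly. Together the genes have 33 separate promoter windows, and 11 of these had an H3K4me3 peak in all 4 libraries while the other 22 had one in no library. All 10 genes had at least 1 window in the first class, Aff1 had 2, and an H3K4me3 promoter peak in all 4 libraries was found at 46.7% of all protein-coding genes. H3K9ac divided the windows almost as sharply, with 11 marked in all 4 libraries and 18 in none. An H3K9ac promoter peak in all 4 libraries was present at 9 of the 10 genes and at 49.4% of all protein-coding genes. In replicate 2, H3K27ac was listed in both genotypes at 10 of the 33 windows and in neither at 21. It was listed in both genotypes at a promoter of 9 of the 10 genes, against 43.9% of all protein-coding genes. The gene without H3K9ac in every library and without H3K27ac was the same, Mllt3.

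**Figure D1:**
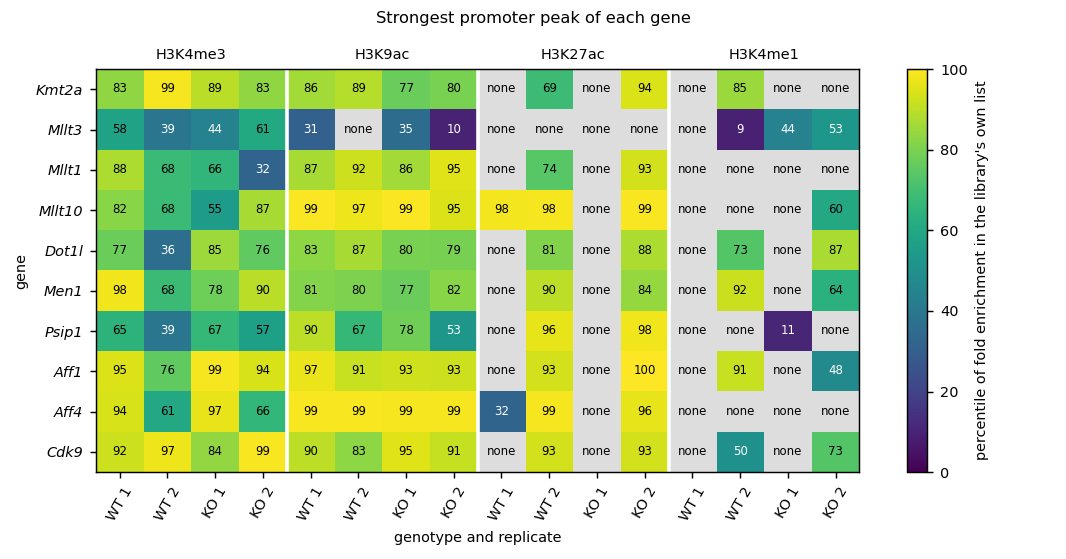
Percentile of fold enrichment, within the list of each library, of the strongest peak that overlaps a promoter window of each gene (rows) in the 16 lists (columns, by mark, genotype and replicate); grey cells marked none have no promoter peak. In every H3K9ac list Aff4 lay at or above the 98.6th percentile and Mllt10 at or above the 94.5th, while Mllt3 reached at most the 35.4th, and replicate 1 of H3K27ac and H3K4me1 is nearly empty.

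Kmt2a, on the minus strand of chromosome 9 (chr9:44803355-44881296), had H3K4me3, H3K9ac and H3K27ac at its outermost TSS. Elsewhere in its 77.9 kb, H3K9ac was listed at 2 intronic sites, each in 1 WT library, at 2.82- and 3.35-fold. The promoter peaks lay on both sides of a short gap and overlap the promoter window of the neighbouring gene AC061963.1, so they cannot be assigned to one of the genes from position. On the side inside the gene, the strongest H3K9ac peak was 12.3- and 14.4-fold enriched in WT and 8.64- and 11.4-fold in KO, both KO values being below both WT values. On the upstream side the values were 7.44- and 9.82-fold in WT and 5.94- and 10.4-fold in KO, and the groups overlapped. The covered length of the locus, which is the number of bases under peaks, was 2.58 and 2.23 kb in WT and 1.95 and 2.23 kb in KO for H3K9ac, and the groups overlapped. For H3K4me3 it was 2.17 and 1.45 kb in WT and 2.29 and 1.97 kb in KO, again with overlap. In the sequence printed above, H3K4me3 peaks covered 300 bases in WT replicate 1, 0 in WT replicate 2, 294 in KO replicate 1 and 300 in KO replicate 2. The WT replicates alone thus spanned the whole range. The strongest H3K27ac promoter peak of replicate 2, inside the gene, was 5.43-fold enriched in WT, the 68.6th percentile of its list. In KO it was 11.97-fold enriched, the 94.3rd percentile. The H3K27ac peak on the upstream side did not rise, at 3.71-fold in WT and 3.30-fold in KO.

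Men1 (chr19:6334979-6340891, plus strand) encodes menin, the adaptor that holds MLL on chromatin. Its 5′ promoter carried H3K4me3 and H3K9ac in all 4 libraries but H3K27ac in the KO library of replicate 2 alone. The H3K9ac peak there was 1179 and 1139 bp wide in WT and 742 and 899 bp in KO. Both KO peaks were narrower than both WT peaks, while their enrichment did not separate the genotypes (9.98- and 10.3-fold in WT, 6.31- and 12.4-fold in KO). The H3K27ac peak in KO was 8.07-fold enriched, the 84.1st percentile of its list. H3K9ac covered 2.11 and 2.04 kb of the Men1 locus in WT and 1.53 and 1.70 kb in KO, with means of 2.08 ± 0.0544 kb and 1.61 ± 0.122 kb (SD, n = 2) and no overlap. A further acetylated site at the 3′ end, chr19:6339344-6341085, had H3K9ac in all 4 libraries at 6.83- to 10.6-fold and H3K27ac in both genotypes, and it overlaps the promoter window of the neighbour Map4k2. The Men1 sequence printed above lies at the upstream edge of the domain, with 45 to 113 of its 300 bases under H3K4me3 and 47 to 179 under H3K9ac.

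Psip1 (chr4:83455680-83486459, minus strand), the gene of LEDGF, had H3K4me3 and acetylation at its outermost start alone, in 2 neighbouring pieces. The upstream piece carried H3K4me3, H3K9ac and, in replicate 2 of both genotypes, H3K27ac of 10.6-fold in WT and 15.04-fold in KO. The piece just inside the gene, chr4:83485301-83486239, had H3K9ac of 5.44- and 3.31-fold in WT and 3.53- and 4.32-fold in KO, and H3K27ac in KO alone at 2.91-fold. The covered length for H3K9ac was 1.10 and 1.05 kb in WT and 1.35 and 0.890 kb in KO, so the WT values lay between the KO values.

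Men1 and Psip1 were the 2 members with a WT-exclusive H3K9ac-only promoter region, meaning an H3K4me3 region shared by the replicates that had H3K9ac and no H3K27ac in WT and no counterpart of that kind in KO. Of the 10643 genes with an H3K4me3 region at the promoter in WT, 12.1% had one. At both genes H3K9ac was present in both KO replicates, and what differed was the H3K27ac peak in KO. In an alternative added once the data had been seen, the H3K27ac lists of both genotypes were cut to their 29757 strongest peaks, and the Men1 region stayed in this class and the Psip1 region did not. With peaks of q at most 0.05 the count was also 1, Men1. With H3K27ac required in both replicates it was 0, but no member had an H3K27ac promoter peak in KO replicate 1. Regions that keep H3K9ac in KO could therefore not be WT-exclusive at that setting, and its count says nothing about Men1 or Psip1. Over all members, WT had 15 H3K4me3 regions, and H3K9ac counted here only where peaks of both replicates overlapped. Of these, 11 had both acetylation marks, 2 had H3K9ac only and 2, both at Mllt3, counted as having neither. KO also had 15, with 13, 0 and 2. The Mllt3 regions nevertheless held H3K9ac peaks of 2.65- and 3.01-fold in WT replicate 1. In KO the Mllt3 region at the TSS held peaks of 3.41-fold in replicate 1 and 2.93-fold in replicate 2, which did not overlap each other.

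**Figure D2:**
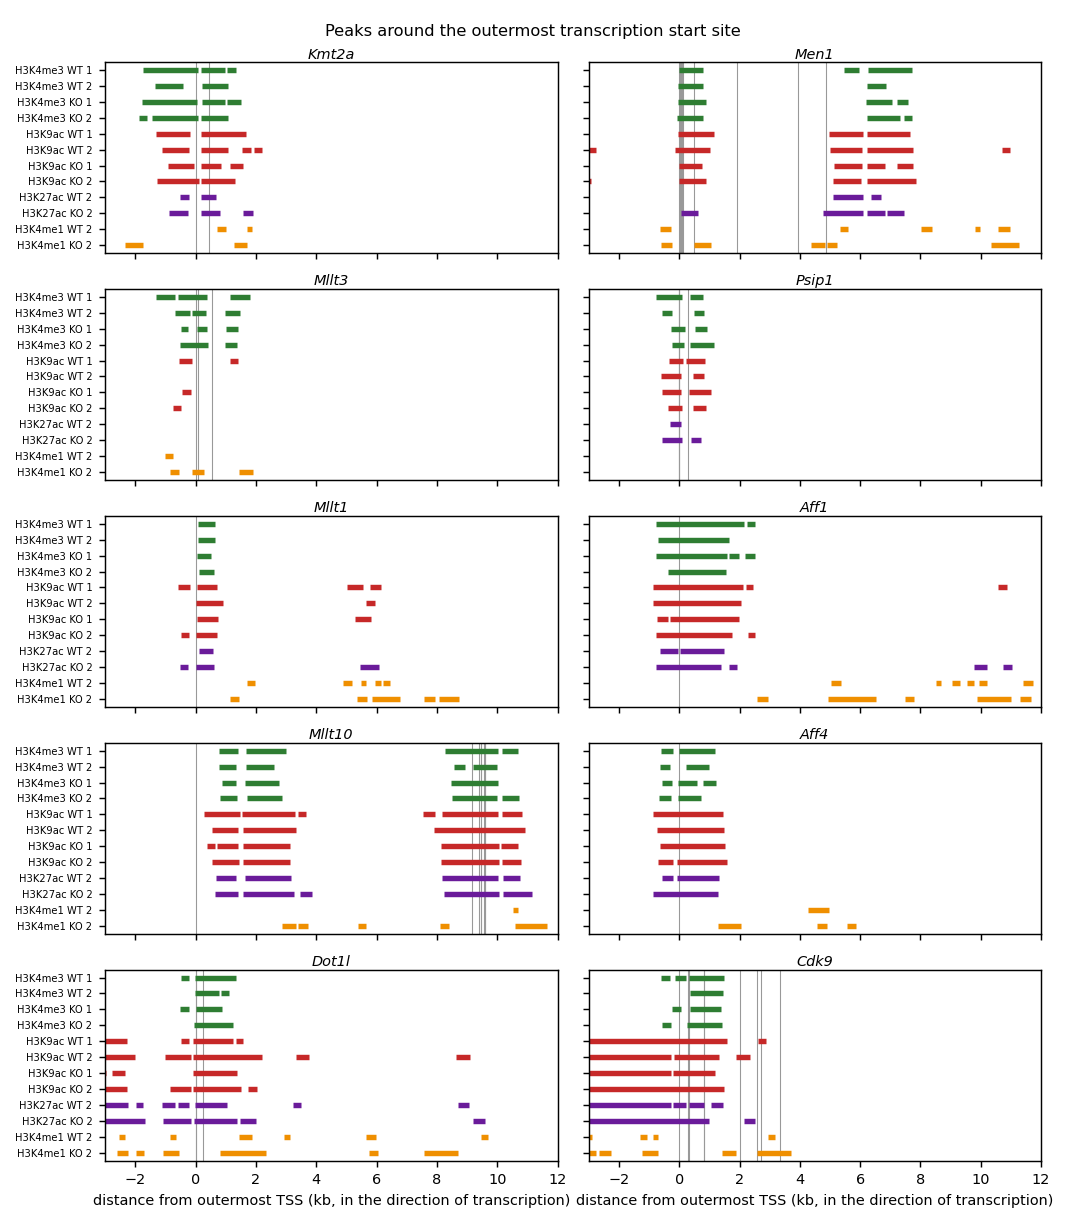
Peaks (bars) from 3 kb upstream to 12 kb downstream of the outermost TSS of each gene, with 1 row per library (mark, genotype, replicate); grey lines are annotated TSSs and distance is in kb in the direction of transcription. Men1 and Psip1 show H3K27ac just inside the TSS in KO replicate 2 that WT replicate 2 lacks, Mllt3 shows H3K4me3 with thin H3K9ac and no H3K27ac, and Mllt10 is marked at about 1 to 3 kb and 8 to 10 kb rather than at its outermost TSS.

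Mllt3 (chr4:87769925-88033364, minus strand), the gene of AF9 and the partner in the fusion used here, had the shortest length under H3K9ac and H3K27ac peaks of the 10 genes in every list compared. The strongest H3K4me3 peak at the outermost TSS was 6.08- and 4.43-fold enriched in WT and 3.99- and 6.27-fold in KO. A further H3K4me3 peak about 1 kb inside the gene was 5.35- and 3.96-fold in WT and 3.56- and 3.48-fold in KO. Its promoter H3K9ac peak was 3.01-fold enriched in WT replicate 1, not listed in WT replicate 2, 3.41-fold in KO replicate 1 and 2.93-fold in KO replicate 2. These were at percentiles 31.2, 35.4 and 10.1 of their lists, and no H3K27ac peak was listed in replicate 2 of either genotype. Peaks of H3K9ac covered 167, 0, 149 and 0 of the 300 printed bases in WT replicates 1 and 2 and KO replicates 1 and 2, although the sequence holds 29 CpG. H3K4me3 covered 1.93 and 1.47 kb of the locus in WT and 0.995 and 1.31 kb in KO, with means of 1.70 ± 0.320 kb and 1.15 ± 0.221 kb (SD, n = 2), so that both KO values were below both WT values. The promoter window of the neighbour Gm12631 overlaps the peaks at the TSS and not those inside the gene. The locus is 264 kb long, and H3K4me1 covered 0.292% of it in WT and 0.790% in KO, in replicate 2.

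Mllt1 (chr17:56892611-56935415, minus strand), the gene of the paralog ENL, had an H3K9ac promoter peak at or above the 86.0th percentile of each list. The strongest H3K9ac promoter peak was 12.6- and 16.9-fold enriched in WT and 11.9- and 20.7-fold in KO. A single H3K4me3 peak per library, 552 and 568 bp wide in WT and 480 and 518 bp in KO, made up all H3K4me3 of the locus, the shortest covered length of the 10 genes in each of the 4 libraries. The means were 0.560 ± 0.0113 kb in WT and 0.499 ± 0.0269 kb in KO (SD, n = 2), without overlap. About 5.6 kb inside the gene, chr17:56929268-56930405 in an intron had H3K9ac in 3 of the 4 libraries at 3.07- to 3.22-fold, H3K4me1 of 5.72-fold in WT and 5.15-fold in KO, and H3K27ac of 3.30-fold in KO alone.

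Mllt10 (chr2:18055237-18212388, plus strand), the gene of the DOT1L cofactor AF10, was not marked at its outermost TSS but inside the gene. The outermost promoter window had H3K4me3 in no library and H3K9ac in replicate 1 of each genotype, at 7.15-fold in WT and 2.65-fold in KO, and neither H3K4me3 nor acetylation covered any of its 300 printed bases. The TSS cluster 9.16 kb further in had H3K9ac of 30.1- and 23.2-fold in WT and 28.0- and 20.2-fold in KO, with H3K4me3 in all 4 libraries and H3K27ac of 12.4- and 17.1-fold in WT and KO of replicate 2. There H3K9ac covered all 300 printed bases in all 4 libraries. A second strong site, chr2:18056787-18058565, had H3K9ac of 18.1- and 29.6-fold in WT and 16.8- and 23.6-fold in KO, and overlaps the promoter windows of 1810059C17Rik and Mir7655, so it cannot be assigned to Mllt10 from position. H3K9ac covered 6.15 and 5.69 kb of the locus in WT and 5.02 and 4.97 kb in KO. The means were 5.92 ± 0.329 kb and 5.00 ± 0.0346 kb (SD, n = 2), and the groups did not overlap. This length includes the site that cannot be assigned to Mllt10. Within the promoter windows alone H3K9ac covered 2091 and 1948 bp in WT and 2009 and 1894 bp in KO, and the groups overlapped.

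Aff4 (chr11:53350833-53421830, plus strand), the scaffold of the super elongation complex, was marked at its outermost promoter window. That window carried H3K9ac of 28.2- and 27.03-fold in WT and 25.1- and 27.8-fold in KO, at or above the 98.6th percentile of each list. H3K9ac covered 2.33 and 2.24 kb in WT and 2.16 and 2.13 kb in KO. The KO values were lower, with means of 2.29 ± 0.0686 kb in WT and 2.14 ± 0.0205 kb in KO (SD, n = 2), the smallest difference among the 5 members whose H3K9ac lengths did not overlap. The other 4 promoter windows of the gene had no H3K4me3, H3K9ac or H3K27ac peak.

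Cdk9 (chr2:32705784-32713076, minus strand), the P-TEFb kinase, lay under an H3K9ac domain that ran upstream past the promoter. The widest H3K9ac peak at the locus was 4627 and 3500 bp in WT and 2788 and 4549 bp in KO, and that stretch overlaps the promoter windows of the microRNA genes Mir2861 and Mir3960. H3K9ac covered 2.83 and 2.67 kb of the locus in WT and 2.13 and 2.48 kb in KO, with means of 2.75 ± 0.110 kb and 2.31 ± 0.2503 kb (SD, n = 2) and no overlap. The enrichment of the strongest promoter peak went the other way, at 14.6- and 11.7-fold in WT and 18.0- and 17.4-fold in KO. The KO peaks were thus higher by enrichment, and the stretch under peaks was shorter.

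Dot1l (chr10:80755206-80795461, plus strand), the H3K79 methyltransferase, had marks at its outermost TSS and thin intronic acetylation. The strongest promoter H3K9ac peak was 10.6- and 13.5-fold in WT and 9.53- and 11.3-fold in KO. H3K9ac covered 2.27 and 4.70 kb in WT and 1.44 and 3.54 kb in KO. Within each genotype replicate 2 was the higher, and the spread between replicates was larger than the difference between genotypes. Of its 5 H3K9ac sites outside promoters none was in all 4 libraries. An intronic pair, chr10:80773786-80774230 and chr10:80774421-80774803, had H3K9ac in replicate 2 of both genotypes, at 2.77- to 4.34-fold.

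**Figure D3:**
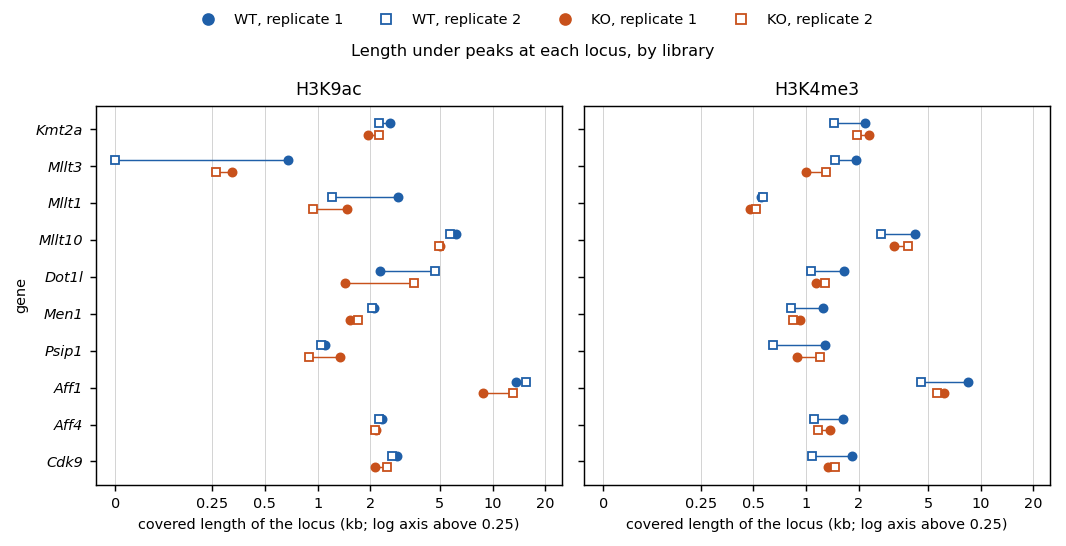
Length under H3K9ac (left) and H3K4me3 (right) peaks in the locus of each gene, in kb on an axis that is linear below 0.25 and logarithmic above it; circles are replicate 1, squares replicate 2, blue WT and orange KO, and lines join the 2 replicates. For H3K9ac the KO points lie left of both WT points at Mllt10, Men1, Aff1, Aff4 and Cdk9, and for H3K4me3 at Mllt3 and Mllt1.

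Aff1 (chr5:103692374-103855322, plus strand), the gene of AF4, held the most H3K9ac, H3K27ac and H3K4me1 peaks of the 10 genes in each list compared, spread along the gene. Its outermost TSS had H3K4me3 of 12.8- and 6.54-fold in WT and 7.87- and 11.4-fold in KO, and H3K9ac of 9.80- and 13.4-fold in WT and 7.58- and 15.3-fold in KO. The TSS cluster 61.8 kb further in had H3K9ac of 21.9- and 16.1-fold in WT and 15.7- and 18.2-fold in KO. In each of the 4 libraries H3K9ac was stronger at the inner cluster than at the outermost TSS. A TSS 92.0 kb in had no H3K4me3 in any library. H3K9ac covered 13.7 and 15.5 kb of the locus in WT and 8.79 and 13.1 kb in KO. The means were 14.6 ± 1.27 kb in WT and 10.96 ± 3.08 kb in KO (SD, n = 2), without overlap, KO replicate 1 being below the other 3 libraries. Among all protein-coding genes, Aff1 ranked 47th and 55th by H3K9ac covered length in WT and 81st and 55th in KO; a locus of 164 kb can hold more peaks than a short one.

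Of the 37 H3K9ac sites that the members held outside their promoter windows, 23 were in Aff1. Over all members 3 sites were in all 4 libraries and 22 in 1 library. The 3 were the Mllt10 site named above and 2 neighbouring intronic sites of Aff1, chr5:103759765-103762054 with H3K9ac of 7.28- and 8.54-fold in WT and 5.00- and 10.3-fold in KO, and chr5:103762447-103764234 with 4.70- and 3.97-fold in WT and 5.77- and 5.46-fold in KO. Of the 37, 1 site was in both WT replicates and in no KO replicate, and none was in both KO replicates and in no WT replicate. The H3K9ac lists of WT covered more of the genome than those of KO. No share over the sites of all genes is given, so these counts cannot be read as particular to the members. The WT site, chr5:103714762-103715417, overlaps an exon of Aff1 22.7 kb from the outermost TSS. It was 2.48- and 4.06-fold enriched, had no other mark in any list, and 31.6% of it is soft-masked as repeat in the genome sequence. When all lists were cut to the same number of peaks, it was no longer in both WT replicates, and the count fell to 0.

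The 200 bases around the summits of the WT-only site and of the stronger of the 2 shared Aff1 sites are shown on the plus strand, since both lie in the same gene and differ in their presence in KO. Summits are those of WT replicate 2, and capitals would mark GAGGAAG (PU.1), TGTGGT (Runx), TTGCNNAA (C/EBP) or CACGTG on either strand.
WT-only site, chr5:103714873-103715072: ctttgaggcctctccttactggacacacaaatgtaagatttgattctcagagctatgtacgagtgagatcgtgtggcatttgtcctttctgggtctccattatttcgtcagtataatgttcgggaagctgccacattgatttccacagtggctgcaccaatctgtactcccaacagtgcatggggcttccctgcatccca
Site in all 4 libraries, chr5:103760539-103760738: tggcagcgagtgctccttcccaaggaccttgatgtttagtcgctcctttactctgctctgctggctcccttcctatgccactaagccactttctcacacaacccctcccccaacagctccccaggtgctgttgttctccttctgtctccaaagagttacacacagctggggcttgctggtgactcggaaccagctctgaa

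None of these motifs was in either printed window. The window of the other shared Aff1 site, chr5:103762772-103762971, is not printed and held 1 match to TGTGGT. Among the 16152 H3K9ac peaks of WT replicate 2 outside promoter windows, GAGGAAG was in 10.3% of such windows, TGTGGT in 16.2%, TTGCNNAA in 8.14% and CACGTG in 3.08%.

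**Figure D4:**
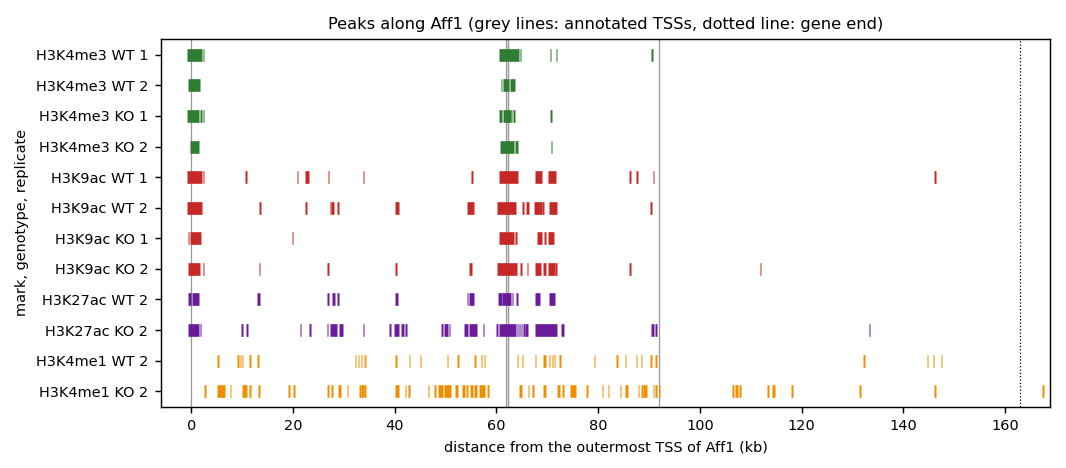
Peaks (bars) along Aff1 against the distance from its outermost TSS in kb, with 1 row per library (mark, genotype, replicate); grey lines are annotated TSSs and the dotted line is the end of the gene. The wide H3K4me3 peaks lie at the TSSs at 0 and 61.8 kb, with short ones further in, while H3K27ac and H3K4me1 of replicate 2 are denser in KO than in WT.

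Over the 10 genes, H3K9ac covered length was lower in KO, with both KO values below both WT values, at 5 (Mllt10, Men1, Aff1, Aff4 and Cdk9) and higher at none. The same held for 36% of the 13591 protein-coding genes with any H3K9ac peak for lower and 3.51% for higher, so the members' share was near the share of all genes. The median ratio of KO to WT means was 0.841 over the 10 members and 0.860 over all genes. The exact permutation test of 2 against 2 libraries (two-sided) gave p = 0.33 for each of the 5, which is the smallest p this design allows. Without WT replicate 2 the count was 8, but with 1 WT value left the rule is easier to meet, and no share of all genes is given for it. With every H3K9ac list cut to its 27657 strongest peaks it was 4, Aff1 no longer being among them, against 31.9% of all genes at that cut.

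H3K4me3 covered length was lower in KO at 2 of the 10 genes, Mllt3 and Mllt1, and higher at none, against 7.74% and 6.42% of 13682 genes. The exact permutation test gave p = 0.33 for both. The H3K4me3 list of WT replicate 2 was the shortest, with 15685 peaks, and that of WT replicate 1 the longest, with 23297. Most members were lower in KO without WT replicate 2, and most were higher without WT replicate 1. With 1 WT value left the rule is easier to meet, and no share of all genes is given for it. These shifts can therefore not be read as particular to the members. Mllt3 and Mllt1 were lower in KO without either WT library.

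In replicate 2, H3K27ac covered length was at least 1.5 times higher in KO at 5 of the 10 genes, Kmt2a, Mllt1, Men1, Psip1 and Aff1, and that much lower at none. The shares over 12016 protein-coding genes were 59.1% and 1.57%. With 1 library per genotype there is no test. At Aff1 the length was 10.8 kb in WT and 24.3 kb in KO, or 6.60% and 14.8% of the locus. At Men1 it was 0.827 and 1.75 kb and at Mllt1 0.481 and 1.48 kb, whereas Cdk9 had 2.07 and 2.35 kb and Aff4 1.78 and 2.16 kb. With both lists cut to 29757 peaks the ratio of KO to WT was 2.12 at Men1, 1.77 at Psip1 and 1.66 at Aff1, and 1.21 at Kmt2a and 1.22 at Mllt1, so 3 of the 5 stayed above 1.5. At that cut 45.6% of all genes were at least 1.5 times higher.

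H3K4me1 in replicate 2 was at least 1.5 times longer in KO at all 10 genes, against 86.1% of 12962 genes, and that much shorter at none, against 7.58%. Aff1 had 9.98 kb in WT and 28.6 kb in KO, Mllt1 1.72 and 4.82 kb, and Dot1l 2.03 and 4.21 kb. Psip1 was listed at 0 in WT and had 0.925 kb in KO. The WT list was the weaker, with 34.3% of its peaks at a q-value of 0.05 or lower against 83.6% in KO. With both lists cut to 45770 peaks the count was 7, against 70.4% of all genes at that cut, and Aff4 turned to shorter in KO, at 1.07 kb in WT and 0.312 kb in KO.

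Outside promoter windows, the members held 111 merged elements of any mark. In replicate 2, H3K27ac was listed in both genotypes at 7 of these, in WT alone at 4 and in KO alone at 16, of which 13 were in Aff1. H3K27ac and H3K4me1 lay on the same element at 4 in WT and 16 in KO. The KO lists of both marks were longer over the whole genome, and the part of list length in these element counts was not tested.

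**Figure D5:**
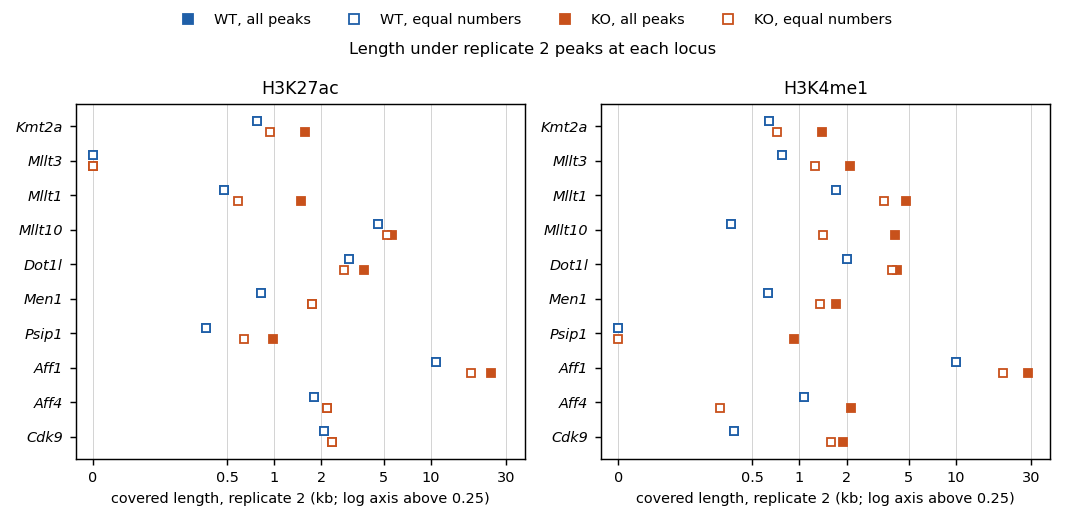
Length under H3K27ac (left) and H3K4me1 (right) peaks of replicate 2 in the locus of each gene, in kb on an axis that is linear below 0.25 and logarithmic above it; filled squares use all peaks, open squares equal numbers of the strongest peaks per genotype, blue is WT and orange KO. At Men1 the open and filled KO squares for H3K27ac coincide at 1.75 kb, and at Aff4 the open KO square for H3K4me1 falls below WT.

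A list of 39 other genes of this machinery held MLL-family methyltransferases and their core subunits, other super elongation complex and P-TEFb genes, the PAF complex, further fusion partners and elongation factors. All 4 H3K4me3 libraries had a promoter peak at 35 of them, all 4 H3K9ac libraries at 37, and H3K27ac was in both genotypes of replicate 2 at 34. The shares of all protein-coding genes were 46.7%, 49.4% and 43.9%. H3K9ac covered length was lower in KO without overlap at 18, higher at 3 and overlapping at 18, beside the 36% and 3.51% of all genes given above. H3K4me3 was lower at 4 and higher at 3, beside 7.74% and 6.42% of all genes with any H3K4me3 peak. Among the genes with the largest differences of the H3K9ac means were Ccnt1, Tet1 and Afdn. For Ccnt1, the cyclin partner of CDK9, the lengths were 3.77 and 3.14 kb in WT against 2.36 and 2.45 kb in KO. For Tet1, a methylcytosine dioxygenase, they were 1.89 and 1.20 kb against 2.14 and 2.30 kb, and for Afdn, a further fusion partner, 1.17 and 0.904 kb against 0.426 and 0.295 kb. KO was lower at Ccnt1 and Afdn and higher at Tet1. Afdn had an H3K9ac promoter peak in 0 of the 4 libraries, so its lengths lay outside promoter windows. Ccnt1 and Tet1 had such a peak in all 4. A WT-exclusive H3K9ac-only region was present at 3 of the 39, beside 12.1% of all genes with an H3K4me3 region at the promoter in WT.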

How the data were processed

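Chromatin from Kat2a WT and KO MLL-AF9 leukemias was profiled by ChIP-seq, in 16 ChIP libraries with 16 inputs. The inputs were not analysed here. Per the study's methods and the submitters' processing notes, the authors used BWA for alignment against mm10 and MACS2 for peak calling, with a q-value of 0.05. The deposited lists also hold weaker peaks, down to a −log10 p-value of 2.00, and none was removed unless stated. In the deposited lists, per the MACS2 narrowPeak format, each peak has a score, a fold enrichment (a ratio to the local background), a −log10 p and a −log10 q. Peaks were called per library, and duplicates, extension and read numbers are not given in the sources used here. Peak length and number grow with depth, which is unknown, so covered lengths compare libraries and not amounts of a mark.

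Peaks were joined to GENCODE M21 genes (any overlap of 1 bp) in Python 3.11.15 with numpy 2.4.6; the interval code was tested on simulated data against bedtools 2.31.1. Percentiles rank a peak's fold enrichment in its own list. H3K9ac and H3K4me3 covered lengths were called lower or higher when both KO values lay beyond both WT values, with an exact two-sided permutation test over libraries; the spread is 1 SD or the 2 values themselves. For H3K27ac and H3K4me1, replicate 2 alone was compared, with a fold of 1.5 and no test. Consensus regions are merged peaks seen in both replicates; an H3K9ac-only region used H3K27ac of replicate 2. Alternatives were a q-value of 0.05, equal numbers of peaks, other windows and overlaps, leaving out libraries, and a replicate block. The named genes are the 10 members, every H3K9ac site exclusive to a genotype, and the 4 genes of the pathway list with the largest differences, of which 1 is not reported here; other sites are named where they describe a member and were chosen after their values were seen. The members and lists were chosen with earlier results of these data known. Per the study's methods, replicates are duplicate immunoprecipitations, and per the labels the animals of a genotype were pooled before chromatin was made.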

Additional observations from a re-analysis of the deposited data

Results flagged for a closer look

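Replicate 1 of H3K27ac and H3K4me1 were left out of the comparisons of the report and enter only as an alternative below. They held a few peaks at the members' promoters. In H3K27ac WT replicate 1, 2 members had one: Mllt10, with 4.85-fold enrichment at the 98.4th percentile of that list, and Aff4, with 3.05-fold at the 32.3rd percentile. Both promoters were also marked in replicate 2. In H3K4me1 KO replicate 1, 2 members had one, Mllt3 with 3.44-fold and Psip1 with 2.75-fold. None of these 4 genes' peaks reached a q-value of 0.05, and there is no control list against which to set them.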

How the results depend on the processing

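Of 74 alternative values, 45 stayed within 1.5 times the reported count and 29 did not; the cause was not tested beyond what a setting itself changes (fewer peaks, shorter windows, fewer libraries). For H3K9ac, lower members (5 reported) were 3 in gene bodies without promoter windows (Kmt2a, Mllt10 and Aff1). By percentile of the strongest promoter peak they were also 3 (Kmt2a, Dot1l and Aff4). Higher members (0 reported) were 2 in gene bodies (Psip1 and Aff4) and 1 by percentile (Cdk9). Aff4 and Cdk9 were thus lower by locus length and higher at another setting. For H3K4me3, lower members (2 reported) were 1 in promoter windows only and 1 by percentile, and higher members (0 reported) were 1 with equal numbers of peaks (Kmt2a), 1 in promoter windows (Men1) and 1 in gene bodies (Psip1). Leaving out 1 library at a time gave 6 to 8 lower and 0 to 1 higher members for H3K9ac, and 2 to 9 lower and 0 to 8 higher for H3K4me3. With a library left out the rule is easier to meet, and no share of all genes is given for these counts. H3K27ac members higher in KO (5 reported) were 3 with equal numbers of peaks and 0 in replicate 1, where 6 were lower. Those 6 rest on at most 260 bp per member, in lists of 26791 peaks in WT and 2725 in KO. No share of all genes is given for them, so they show no change of direction. H3K4me1 members higher in KO (10 reported) were 4 in replicate 1 and 6 in promoter windows, and members lower (0 reported) were 1 with equal numbers of peaks (Aff4), 2 in replicate 1 and 1 in promoter windows (Kmt2a). The replicate 1 lists of H3K4me1 held 5368 peaks in WT and 27423 in KO, and covered at most 211 bp of any member. An H3K4me3 peak over at least 50% of a promoter window was in every library at 6 members. WT-exclusive H3K9ac-only regions (2 reported) were at 1 member with a q-value of at most 0.05 and 1 with H3K27ac lists of equal length. They were at 0 members with both replicates required for every mark. That setting could not find one where KO kept H3K9ac, since KO replicate 1 had no H3K27ac promoter peak at any member. The WT-only Aff1 site was 0 with equal numbers of peaks.

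With the replicate block, where each KO library was set against the WT library of its number, 7 members were lower and 0 higher for H3K9ac, and 2 lower and 1 higher (Kmt2a) for H3K4me3. This rule is easier to meet than the reported one, and no share of all genes is given for it. Replicate differences of WT and KO correlated at 0.11 for H3K9ac and -0.04 for H3K4me3 across genes, which are not independent replicates. Whether libraries of the same number were prepared together is not given in the sources used here, and these correlations cannot decide it. Read depth is unknown and limits every length.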
